A study of Homo sapiens with 6 samples.

Results

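The genes described here build the DNA replication fork and supply its deoxynucleotides. They are 47 genes chosen by symbol for their known roles, from the MCM helicase and the origin recognition complex to the polymerases, the sliding clamp and the enzymes of deoxynucleotide synthesis. These genes were chosen with earlier results of these data known. Each was read from probe sets that carry its symbol alone, and 47 of 47 were found among the 18417 genes measured. CLSPN had a second probe set and the other 46 genes had 1 each, and where there was a choice the brightest probe set across the arrays stood for the gene. They were measured in PC3, a human prostate cancer line that grows without androgen, after transfection of a miR-205 mimic (3 arrays) or of a negative control mimic (3 arrays). All 6 arrays read RNA pulled down with AGO2, the protein through which microRNAs engage transcripts, so both groups share that selection, and no input RNA was analysed here. The design text calls the 3 samples of a group biological replicates. The values are log2 intensities, so a difference of 1 is a doubling of the signal.

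Before a cell can copy its DNA, the origin recognition complex, CDC6 and CDT1 load the MCM2-7 helicase onto origins, a step called licensing. CDC45 and the GINS complex then switch the helicase on, primase and DNA polymerase alpha lay down primers, and polymerases delta and epsilon extend them on the PCNA clamp, which the RFC complex loads. Many of these genes are transcribed under E2F factors late in G1, while others, such as several origin recognition subunits, are held at more even levels through the cycle. Proliferating cancer lines such as PC3 express the whole set.

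The sample titles name the transfected RNA as miR-205 without an arm. It was taken here to be miR-205-5p, whose 22 mature bases lie at chr1:209432166-209432187 on the plus strand of GRCh38.p14. Its mature sequence from RefSeq is shown because the seed, bases 2 to 8 in capitals, is the stretch that pairs with target transcripts. Seed matches in the transcripts of the replication genes were not searched, since no untranslated sequence was used here.
hsa-miR-205-5p: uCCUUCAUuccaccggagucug

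Upstream sequence was examined because genes of DNA replication are classic E2F targets. RefSeq start sites (GRCh38.p14) were matched by symbol for 41 of the 47 genes, and MCM4, MCM5, GINS4, POLD3, RPA2 and RPA3 had no entry. The first window of each gene, 250 bases before its start to 50 after, was searched on both strands for the E2F site letters TTTCCCGC, TTTGGCGC, TTTCGCGC and TTTGCCGC, and for the CCAAT box, the letters bound by NF-Y. More than 1 window was listed for 9 of the 41 genes, TIPIN and RRM2 among them, and their further windows were not searched. Matches on opposite strands can overlap and were then counted separately. An E2F match was present for 19 of 41 replication genes (46.3%), against 644 of 14239 tested genes with a window (4.52%). Over all 27305 genes with a window, the share was 3.33%. A CCAAT match was present for 24 of 41 (58.5%), against 36.3% of tested genes and 35.7% of all genes with a window. An E2F match was found for 6 of 15 genes that rose with miR-205, 1 of 3 that fell and 12 of 23 that did not pass the limma test. A CCAAT match was found for 8 of 15, 2 of 3 and 14 of 23. These shares were not tested against each other.

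The sequences upstream of the genes with the largest rises (TIPIN and RRM2) and the largest falls (GINS1 and FEN1) are shown as examples from each direction. Each line gives the 250 bases before the start, 5′ to 3′ on the gene's strand, with CCAAT matches on either strand in capitals.
TIPIN (chr15:66386718-66386967, minus strand): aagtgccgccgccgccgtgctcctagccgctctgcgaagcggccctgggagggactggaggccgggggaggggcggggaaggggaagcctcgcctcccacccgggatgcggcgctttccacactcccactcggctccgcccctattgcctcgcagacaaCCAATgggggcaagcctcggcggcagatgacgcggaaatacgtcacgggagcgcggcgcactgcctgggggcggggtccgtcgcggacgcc
RRM2 (chr2:10122489-10122738, plus strand): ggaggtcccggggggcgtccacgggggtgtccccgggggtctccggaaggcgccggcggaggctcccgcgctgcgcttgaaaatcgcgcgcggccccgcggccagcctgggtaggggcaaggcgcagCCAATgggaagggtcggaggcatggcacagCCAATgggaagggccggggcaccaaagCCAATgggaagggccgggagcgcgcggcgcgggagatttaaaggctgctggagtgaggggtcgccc
GINS1 (chr20:25407423-25407672, plus strand): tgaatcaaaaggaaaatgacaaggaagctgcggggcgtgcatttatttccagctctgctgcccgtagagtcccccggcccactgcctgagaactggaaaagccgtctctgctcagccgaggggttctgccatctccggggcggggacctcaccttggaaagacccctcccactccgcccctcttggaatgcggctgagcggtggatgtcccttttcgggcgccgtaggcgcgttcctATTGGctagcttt
FEN1 (chr11:61792661-61792910, plus strand): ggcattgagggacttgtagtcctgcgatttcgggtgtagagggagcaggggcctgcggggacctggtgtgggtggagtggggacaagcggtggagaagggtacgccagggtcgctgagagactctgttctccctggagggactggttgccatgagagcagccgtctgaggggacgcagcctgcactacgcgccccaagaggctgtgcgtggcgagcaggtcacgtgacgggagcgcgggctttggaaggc
The RRM2 stretch holds 3 CCAAT boxes in a row, beginning at positions -123, -93 and -66 from the start, and TIPIN and GINS1 hold 1 each. FEN1 has no match to either motif in its window, and the E2F match of GINS1 lies after its start, at bases 5 to 12. A match of letters is a description and shows no binding.

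With miR-205, 16 of the 47 replication genes rose, 3 fell and 28 did not pass. The test was limma over all 18417 genes, with a Benjamini-Hochberg adjusted p under 0.05. The genes that rose included RRM2, TYMS, PCNA, CDC6, POLE2, POLA1, TIPIN and 3 origin recognition subunits, by 0.19 to 0.61 on the log2 scale, while GINS1, FEN1 and RFC1 fell. Over all genes tested, 12.6% rose, 14.0% fell and 26.6% changed in either direction. Among the replication genes 34.0% rose, 6.38% fell and 40.4% changed. Because the genes were chosen with earlier results of these data known, these shares describe the list and do not test it. The changes were small: 3 genes moved by 0.5 or more, and the median over the 47 was 0.11, against -0.02 over all genes. The counts rested on the number of arrays. Leaving out miR-205 replicate 1, 2 or 3 gave 10 genes that rose each time, and leaving out a control array gave 12 or 13. Those counts include RPA3 without negative control replicate 1 and CDC45 without negative control replicate 2, which had not passed on all 6 arrays. The genes that fell numbered 1 without miR-205 replicate 1, miR-205 replicate 2 or negative control replicate 1, and 0 without negative control replicate 3, where limma gave 3 at an unadjusted p under 0.05. Testing all 33297 probe sets together gave 10 that rose and 1 that fell.

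Replication genes were brighter than most genes, with a median level of 9.21, against 7.84 over all genes, and brighter genes were called more often. Of the 42 replication genes above the median level of all genes, 16 rose (38.1%) and 3 fell (7.14%). Of all 9208 genes above that level, 18.9% rose and 22.0% fell. Genes for olfactory receptors gave a mark of unexpressed genes, a level of 6.04 that 95% of those 341 genes did not exceed, and all 47 replication genes had mean levels above it.

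**Figure D1:**
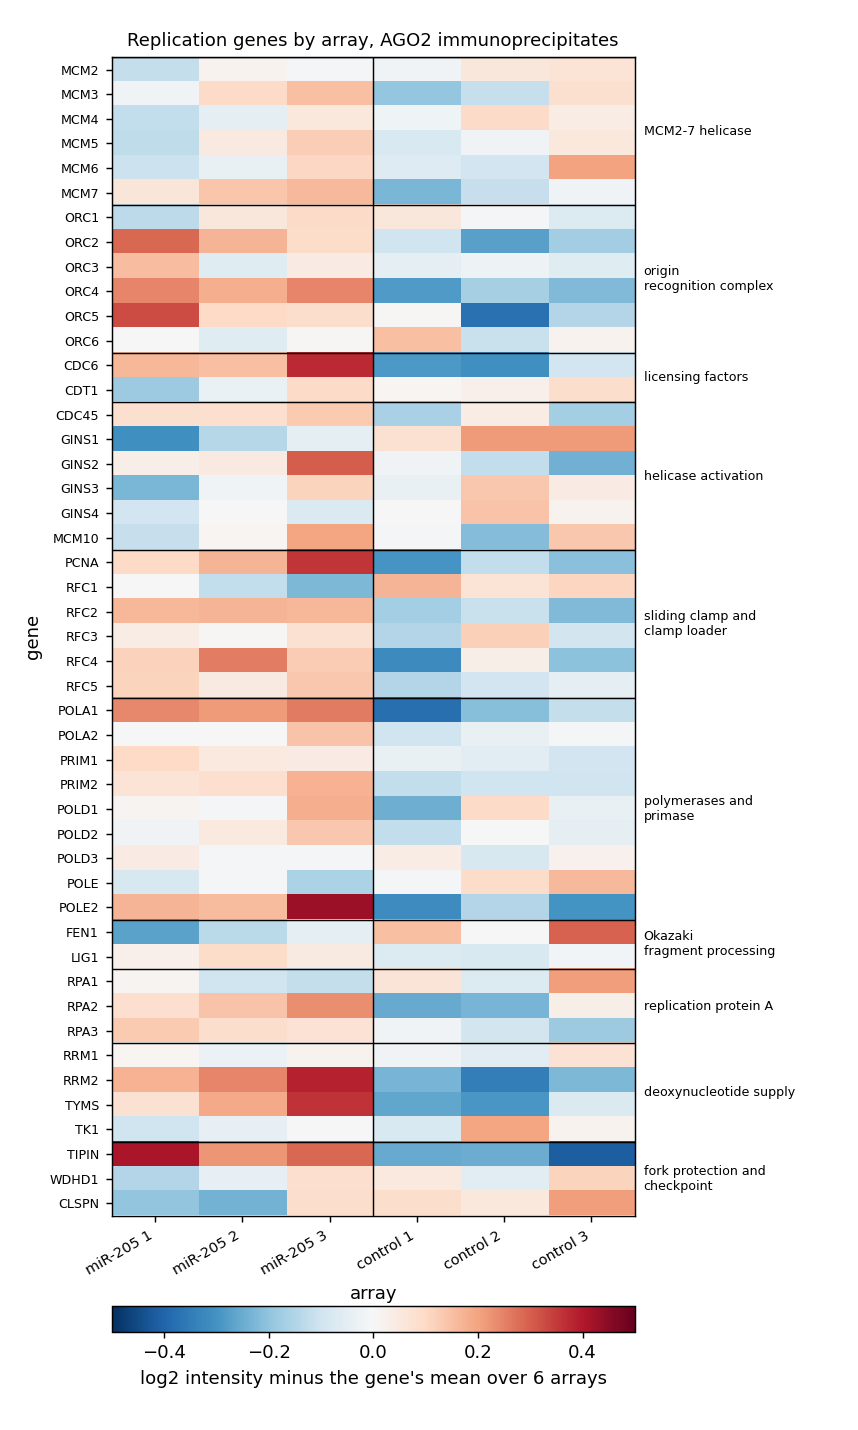
Log2 intensity of each replication gene (rows, grouped by role) in each array (columns, 3 miR-205 arrays left of 3 negative control arrays), shown as the deviation from the gene's mean over the 6 arrays. ORC4, RRM2, POLA1, POLE2 and TIPIN are red in the 3 miR-205 arrays and blue in the 3 control arrays, while GINS1 and RFC1 are the other way round apart from a miR-205 array near 0.

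The level in the arrays followed the groups for 25 of the 47 genes. For 22 of them the 3 miR-205 arrays lay above the 3 control arrays and for 3 below, 53.2% in all. Of all genes tested, 42.2% had groups apart, 19.9% with miR-205 above and 22.2% with miR-205 below. Arrays also differed within groups. Among the miR-205 arrays, replicate 3 was the highest for 31 of 47 genes and replicate 1 the lowest for 27. Among the control arrays, replicate 3 was the highest for 22 genes and replicate 1 the lowest for 23. Relative to the mean of all other genes, the mean of the 47 stood at 1.47, 1.51 and 1.58 in the miR-205 arrays and at 1.36, 1.39 and 1.41 in the control arrays. The means were 1.52 ± 0.06 with miR-205 and 1.39 ± 0.03 with the control (SD, n = 3 each), and the groups did not overlap.

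Among the 6 subunits of the MCM2-7 helicase, the ring that unwinds DNA at the fork, only MCM7 passed. MCM7 stood at 9.69, 9.77 and 9.79 with miR-205, against 9.40, 9.51 and 9.61 with the control, a rise of 0.24 ± 0.07 on the log2 scale (± SE, limma adjusted p = 0.0365, 3 arrays per group here and below). Its call was lost in 7 of 16 alternatives, among them centring each array on its median (adjusted p = 0.0539). The other 5 had differences of -0.08 (MCM4) to 0.15 (MCM3). Their 95% confidence intervals were -0.22 to 0.07 for MCM2, -0.04 to 0.34 for MCM3, -0.23 to 0.08 for MCM4, -0.15 to 0.20 for MCM5 and -0.24 to 0.18 for MCM6. A rise as large as that of RRM2 (0.53) lies outside each of the 5 intervals. The smaller rise of MCM7 (0.24) lies inside the interval of MCM3.

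Of the origin recognition complex, which marks the sites where the helicase is loaded, ORC2, ORC4 and ORC5 rose and ORC1, ORC3 and ORC6 did not pass. ORC4 stood at 9.97, 9.91 and 9.97 with miR-205, against 9.45, 9.56 and 9.51 with the control, a rise of 0.44 ± 0.06 (adjusted p = 0.000978). ORC2 stood at 10.37, 10.25 and 10.17, against 9.98, 9.81 and 9.91, a rise of 0.36 ± 0.07 (adjusted p = 0.00743). In both genes the lowest miR-205 array lay above the highest control array. ORC5 stood at 9.47, 9.24 and 9.23 with miR-205, against 9.15, 8.77 and 9.00 with the control. Its rise of 0.34 ± 0.11 (adjusted p = 0.0442) was lost in 7 of 16 alternatives, with an adjusted p of 0.144 without miR-205 replicate 1, its highest array. ORC1, the subunit whose level follows the cell cycle, differed by 0.01 (95% confidence interval -0.16 to 0.19). ORC6 differed by -0.04 (-0.21 to 0.13) and ORC3 by 0.09 (-0.07 to 0.25).

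Of the licensing factors CDC6 and CDT1, which load the helicase together, CDC6 rose and CDT1 did not pass. CDC6 stood at 9.03, 9.01 and 9.24 with miR-205, against 8.58, 8.56 and 8.77 with the control, a rise of 0.46 ± 0.09 (adjusted p = 0.00468). CDT1 differed by -0.08 ± 0.08 (adjusted p = 0.499), at 7.37, 7.52 and 7.64 against 7.56, 7.57 and 7.64. The CDC6 arrays of the groups were apart and those of CDT1 overlapped. The difference between these genes, like those between other members of a complex, was not tested.

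Of the factors that turn the loaded helicase into a moving one, GINS1, a subunit of the GINS complex, fell. It stood at 10.41, 10.57 and 10.67 with miR-205, against 10.79, 10.93 and 10.93 with the control, a fall of 0.33 on the log2 scale (SE 0.08, adjusted p = 0.0157). The adjusted p was 0.0547 without miR-205 replicate 1 and 0.0568 without negative control replicate 3. GINS2 and CDC45 lay higher in each miR-205 array than in any control array but did not pass. GINS2 differed by 0.25 ± 0.09 (adjusted p = 0.0733) and CDC45, the factor that joins GINS and MCM in the active helicase, by 0.20 ± 0.07 (adjusted p = 0.0763). Without negative control replicate 2, CDC45 passed with a difference of 0.26 (adjusted p = 0.0131). GINS3 (-0.09), GINS4 (-0.11) and MCM10 (0.06), which helps to activate the helicase, did not pass.

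Of 6 genes of the sliding clamp and its loader, 4 rose and 1 fell, the largest share called among the 10 roles. That share was 83.3%, against 26.6% of all genes tested. All 6 were bright, at levels of 9.49 to 10.37, and of genes above the median level 18.9% rose and 22.0% fell. The roles are small, with 2 to 9 genes each, and their shares were not tested against each other. Only PCNA and RFC2 of them kept the call under each alternative. PCNA, the ring that tethers polymerases to DNA, stood at 9.76, 9.83 and 10.02 with miR-205, against 9.36, 9.54 and 9.45 with the control. It rose by 0.42 ± 0.08 (adjusted p = 0.00614). RFC2, a small subunit of the clamp loader, stood at 10.10 in each of the 3 miR-205 arrays, against 9.76, 9.82 and 9.71 in the control arrays, a rise of 0.34 ± 0.06 (adjusted p = 0.0033). The groups were apart in both, and the miR-205 arrays of RFC2 were nearly equal. RFC4 rose by 0.33 ± 0.09 (adjusted p = 0.0302), with 10.49, 10.63 and 10.50 against 10.05, 10.40 and 10.17, so that 1 control array came close to the miR-205 arrays. RFC5 rose by 0.19 ± 0.06 (adjusted p = 0.0419), a call that 9 of 16 alternatives did not keep. The large subunit RFC1 fell by 0.23 on the log2 scale (SE 0.07, adjusted p = 0.0426), with 9.48, 9.37 and 9.26 against 9.66, 9.56 and 9.60. RFC3 differed by 0.08 (adjusted p = 0.508), and its arrays overlapped.

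Among 9 polymerase and primase genes, POLE2, POLA1 and PRIM2 rose and 6 did not pass. POLE2, the accessory B subunit of the leading-strand polymerase epsilon, stood at 9.39, 9.37 and 9.64 with miR-205, against 8.90, 9.07 and 8.91 with the control, a rise of 0.51 ± 0.09 (adjusted p = 0.00344). POLA1, the catalytic subunit of the primer-making polymerase alpha, stood at 8.63, 8.61 and 8.66, against 8.02, 8.18 and 8.28, a rise of 0.47 ± 0.07 (adjusted p = 0.00212). The groups were well apart in both, and the miR-205 arrays of POLA1 differed by less than its control arrays. PRIM2, the large primase subunit, rose by 0.22 ± 0.06 (adjusted p = 0.0253). Its catalytic partner PRIM1 differed by 0.13 ± 0.06 (adjusted p = 0.137) and POLA2, the alpha B subunit, by 0.09 ± 0.07 (adjusted p = 0.338). In both the miR-205 arrays lay above the control arrays. The catalytic subunit POLE differed by -0.16 ± 0.07 (adjusted p = 0.122), opposite in sign to POLE2. The delta subunits POLD1 (0.13), POLD2 (0.11) and POLD3 (0.01) did not pass.

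FEN1, the nuclease that trims Okazaki fragments on the lagging strand, fell by 0.30 on the log2 scale (SE 0.09, adjusted p = 0.0391). Its arrays stood at 9.36, 9.50 and 9.58 with miR-205, against 9.78, 9.63 and 9.92 with the control, with the highest miR-205 array close under the lowest control array. LIG1, the ligase that seals the trimmed ends, differed by 0.11 ± 0.06 (adjusted p = 0.214). In replication protein A, which coats single-stranded DNA, RPA2 rose by 0.31 ± 0.09 (adjusted p = 0.031), with 8.25, 8.31 and 8.40 against 7.91, 7.93 and 8.20. The largest subunit gene RPA1 differed by -0.14 ± 0.08 (adjusted p = 0.262). The smallest, RPA3, differed by 0.19 ± 0.06 and lay just outside the threshold (adjusted p = 0.052).

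Of 4 genes of deoxynucleotide supply, RRM2 and TYMS rose and RRM1 and TK1 did not pass. RRM2, the small subunit of ribonucleotide reductase and the one whose level follows S phase, stood at 9.68, 9.74 and 9.89 with miR-205, against 9.27, 9.16 and 9.28 with the control. It rose by 0.53 ± 0.07, or 1.45-fold (adjusted p = 0.00106). RRM1, the large subunit, had a difference of 0.00 ± 0.06 (95% confidence interval -0.14 to 0.14) at a level of 11.34 in both groups. TYMS, which makes thymidylate, stood at 10.59, 10.71 and 10.88, against 10.26, 10.22 and 10.44, a rise of 0.42 ± 0.09 (adjusted p = 0.00972). TK1, the salvage kinase for thymidine, differed by -0.09 ± 0.08 (adjusted p = 0.444), and negative control replicate 2 was its highest array at 11.59. The arrays of the groups were apart for RRM2 and TYMS and overlapped for RRM1 and TK1.

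TIPIN, the partner of TIMELESS in the fork protection complex, had the largest difference and the smallest p-value of the 47 genes. It stood at 9.44, 9.25 and 9.32 with miR-205, against 8.78, 8.79 and 8.62 with the control, a rise of 0.61 ± 0.07, or 1.52-fold (adjusted p = 0.000638). CLSPN, the adaptor that carries the checkpoint signal from ATR to CHEK1, differed by -0.23 ± 0.09 (adjusted p = 0.102). It stood at 7.83, 7.79 and 8.11 against 8.12, 8.08 and 8.24, so that miR-205 replicate 3 fell among the control arrays. Without that array it was lower by limma (-0.33, adjusted p = 0.0215). Its second probe set differed by 0.01 ± 0.07 (adjusted p = 0.931 over all probe sets). WDHD1, which links the helicase to polymerase alpha, differed by -0.07 ± 0.08 (adjusted p = 0.572).

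**Figure D2:**
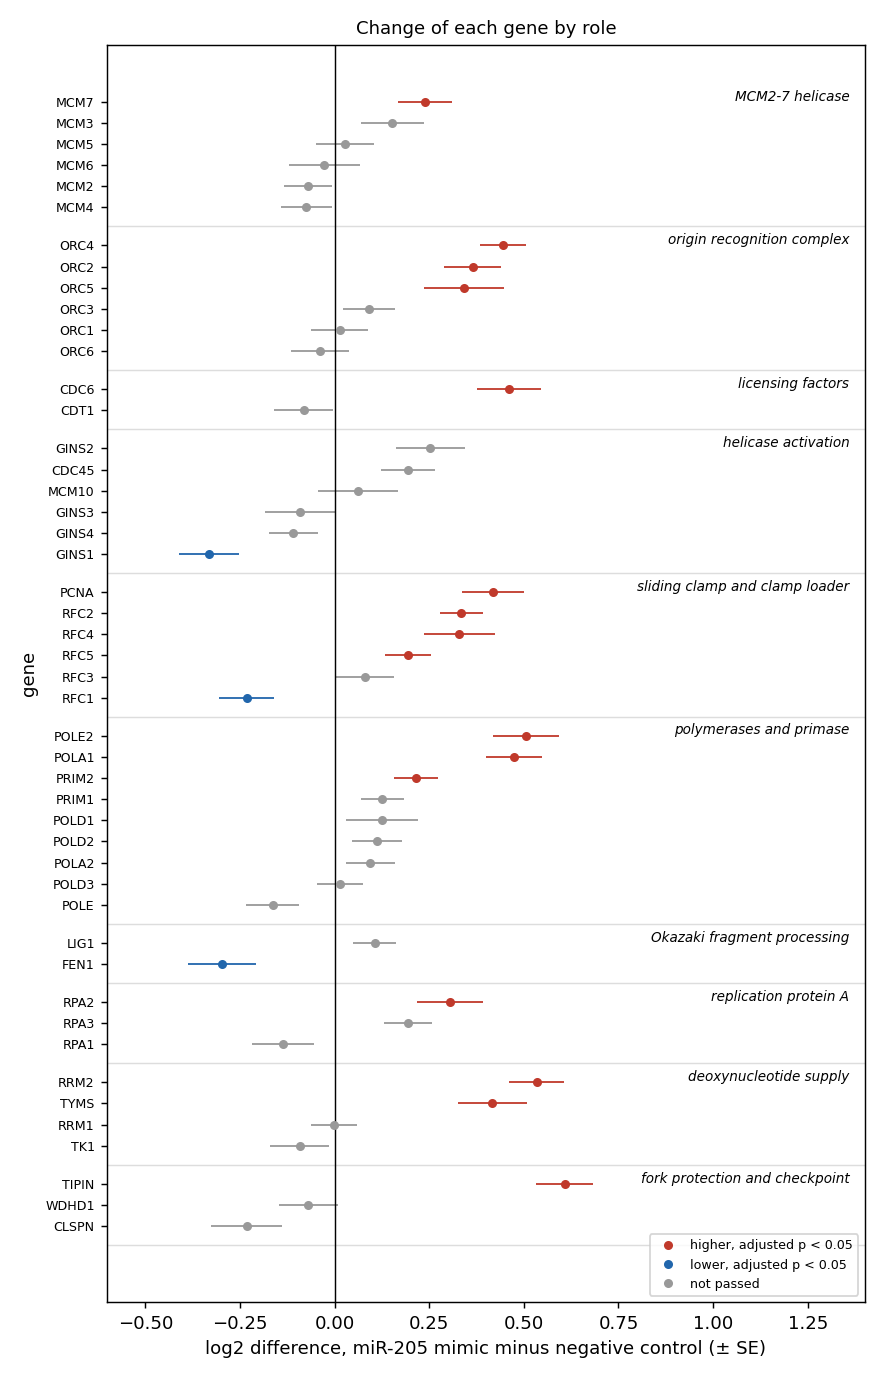
Log2 difference (miR-205 mimic minus negative control mimic, points) with its SE (bars, n = 3 arrays per group) for each of the 47 genes, grouped by role; colours show the limma call. The differences run from -0.33 (GINS1) to 0.61 (TIPIN), and 5 of the 6 MCM2-7 subunits lie between -0.08 and 0.15.

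Of the 19 genes called, 10 kept their call under each of the 16 alternatives, and each of the 10 had risen. They were TIPIN, RRM2, POLE2, POLA1, CDC6, ORC4, PCNA, TYMS, ORC2 and RFC2. MCM7, ORC5, RFC4, RFC5, PRIM2, RPA2, GINS1, FEN1 and RFC1 each lost the call under at least 2 alternatives, with no change of sign. These 9 calls are therefore less certain than the first 10.

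**Figure D3:**
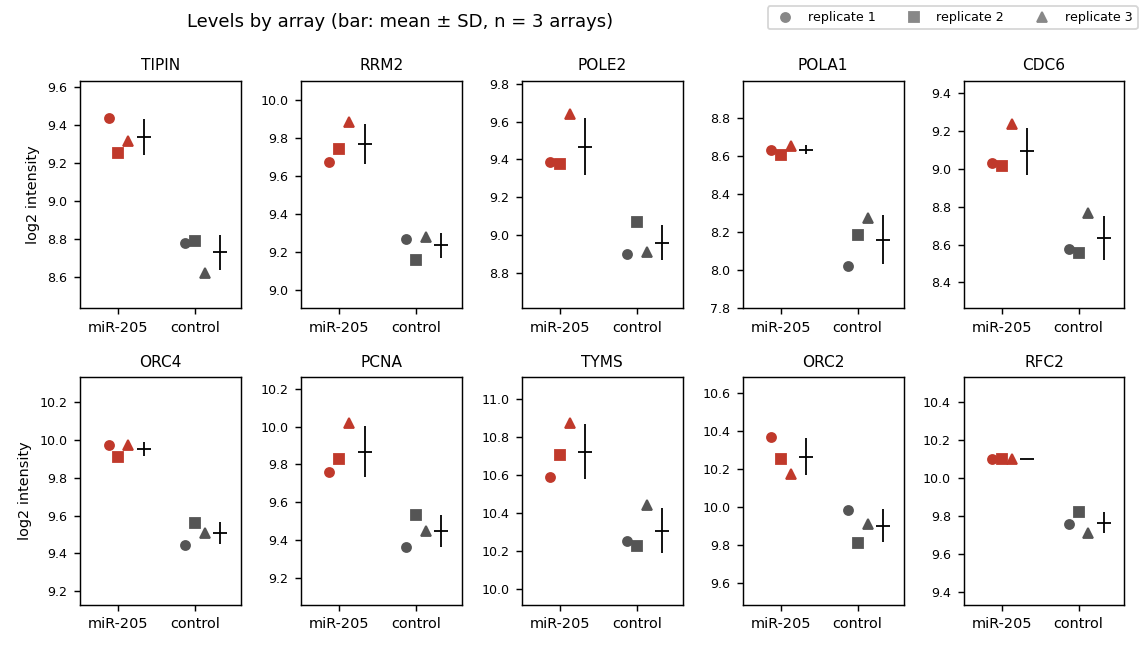
Log2 intensity (y axis, a window of 1.2 centred on each gene) of the 10 genes that were called under each alternative, by array, with miR-205 arrays left of control arrays; marker shapes give the replicate number and bars the mean ± SD (n = 3). In each panel the lowest miR-205 array lies above the highest control array, and miR-205 replicate 3 is the highest array for RRM2, POLE2, POLA1, CDC6, PCNA and TYMS.

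Genes that act beside these in the same pathway were read from 3 further lists, and no test compared the lists with the 47 genes. Of 17 other origin licensing and firing genes, 2 rose (11.8%) and 7 fell (41.2%), with a median of -0.18. Over all genes tested 12.6% rose and 14.0% fell, and above the median level 18.9% rose and 22.0% fell. MCMBP, which binds MCM subunits outside the loaded ring, fell by 0.41 on the log2 scale (adjusted p = 0.00148), and DONSON, a helicase assembly factor, by 0.46 (adjusted p = 0.00265). CDC7, the kinase that fires origins, rose by 0.45 (adjusted p = 0.00375), while its activator DBF4 fell by 0.36 (adjusted p = 0.0112) at a level of 5.01, under the mark for unexpressed genes. DBF4 and TICRR were picked out after their values were seen. TICRR, an origin firing factor, had the largest fall, with 7.89, 8.05 and 8.17 with miR-205, against 9.14, 8.55 and 9.30 with the control (log2 difference -0.96, adjusted p = 0.00418). Negative control replicate 2 was the nearest control array to the miR-205 arrays.

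Of 28 other fork, checkpoint and chromatin assembly genes measured, 4 rose and 3 fell (median 0.04). In all 25% of that list changed, against 26.6% of all genes tested. The topoisomerase genes TOP2A and TOP2B fell by 0.51 and 0.38 on the log2 scale (adjusted p = 0.00096 and 0.00753). RNASEH2B, a subunit of the nuclease that removes ribonucleotides from DNA, rose by 0.28 (adjusted p = 0.0078). Of 29 other nucleotide synthesis genes measured, 5 rose and 4 fell (median 0.05), 31% in all, which is also near the share of all genes. Both lists were brighter than most genes, with median levels of 9.65 and 10.14, against 7.84 over all genes. Of genes above the median level, 18.9% rose and 22.0% fell. DGUOK, a mitochondrial deoxynucleoside kinase, rose by 0.50 (adjusted p = 0.00111). CTPS2, which makes CTP, and UMPS, which makes UMP, fell by 0.36 and 0.32 on the log2 scale (adjusted p = 0.00429 and 0.0119).

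E2F and mitotic genes were read beside the replication genes as lists of the cell cycle. Of 13 E2F, DP and pocket protein genes, 4 fell (30.8%) and 0 rose by limma, with 2 higher at an unadjusted p under 0.05. Of all genes tested 14.0% fell and 26.6% changed in either direction, and of genes above the median level 22.0% fell. E2F1 stood at 9.23, 9.41 and 9.45 with miR-205, against 9.63, 9.89 and 9.79 with the control, a fall of 0.41 on the log2 scale (adjusted p = 0.00929). E2F3 fell by 0.46 (adjusted p = 0.0108) and E2F5 by 0.31 (adjusted p = 0.0133). Of 20 mitosis genes, 13 fell (65%) and 0 rose by limma (0 higher at an unadjusted p under 0.05), with a median of -0.30. The proliferation marker MKI67 fell by 0.77 (adjusted p = 0.000231), BUB1, a spindle checkpoint kinase, by 0.69 (adjusted p = 0.000356), and CENPF, a kinetochore protein, by 0.62 (adjusted p = 0.00035).

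Relative to other genes, the mean of the mitosis list stood at 2.10, 2.09 and 2.14 in the miR-205 arrays and at 2.38, 2.43 and 2.36 in the control arrays. That of the replication genes, given above, lay higher with miR-205. Whether the share of cells in each phase differed between the groups was not tested. Fewer cells in a phase, less RNA per cell and a smaller part of a transcript bound to AGO2 cannot be told apart in these arrays.

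**Figure D4:**
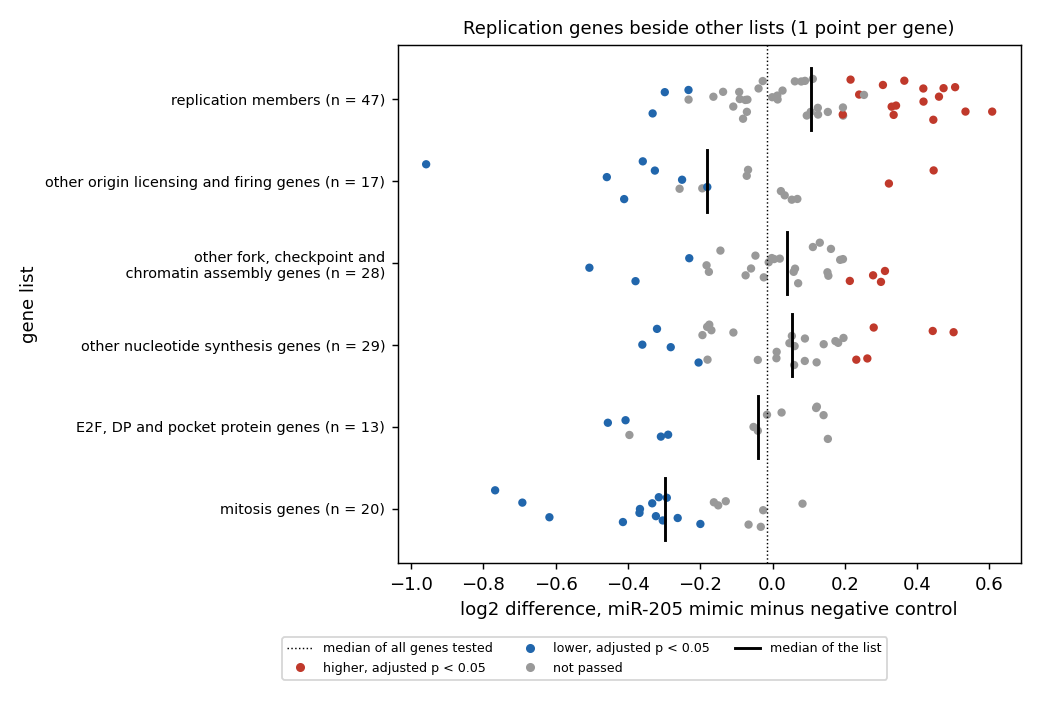
Log2 difference (miR-205 mimic minus negative control mimic, x axis) of each gene (points, coloured by limma call) in the replication set and 5 other lists; thick lines are list medians and the dotted line is the median of all genes. The replication median lies at 0.11 with 16 genes higher and 3 lower, and the mitosis median at -0.30 with 13 lower.

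Medians over all probe sets lay between 6.82 and 6.86 in the 6 arrays. Negative control replicate 2 stood apart from the other control arrays, with an SD of differences over genes of 0.218 and 0.215 to them, against 0.155 between them. Over the 47 replication genes the same SDs were 0.150 and 0.151, against 0.122, and without that array 13 replication genes rose and 3 fell. Over all genes, it was also the control array nearest each miR-205 array. Its SDs to them were 0.278, 0.275 and 0.284, against 0.322 to 0.339 for the other control arrays. Without it 2668 of all genes rose and 2881 fell, against 2320 and 2586 on all 6 arrays. Of 4 epithelial markers, KRT19 stood at 11.62 with miR-205 against 11.65 with the control and 3 rose with miR-205, among them EPCAM, at 9.12 ± 0.07 with miR-205 against 6.83 ± 0.19 with the control (SD, n = 3 each). The androgen-driven KLK3 stood at 6.07, close to the mark for unexpressed genes, and KLK2 at 6.39, above it. The leukocyte genes PTPRC and CD3E lay under the mark. Of 3 fibroblast markers none passed by limma (0 at an unadjusted p under 0.05). All 3 lay above the mark, COL1A1 at 8.99, COL1A2 at 6.64 and PDGFRB at 6.32. Of the endothelial pair, PECAM1 stood at 6.31 ± 0.05 with miR-205 against 7.29 ± 0.20 with the control, a fall, and CDH5 lay under the mark. The part of these markers in the replication results was not tested.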

How the data were processed

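Affymetrix gene arrays read AGO2-bound RNA in 6 samples. The sample titles give the cell line, the group (3 samples each) and the replicate number. The submitters' processing notes name RMA and Expression Console 1.1.2, and the deposited values are log2 intensities. RMA equalises the distributions of arrays, which would remove a shift shared by most genes. They were used without further scaling. Of 33297 probe sets, 19460 carried 1 gene symbol, which gave 18417 genes after the brightest probe set of each was taken. Genome build and probe sequences were not given in the sources used here, so cross-hybridisation was not tested.

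The comparison was a two-sided test in limma (version 3.58.1, R 4.3.3; functions lmFit, eBayes) with no covariate, adjusted by Benjamini-Hochberg over the 18417 genes. Printed adjusted p-values are from this fit unless a sentence names another setting. The steps were also run on simulated data with few changed genes and noise independent between arrays. That setting differs from these arrays, where 26.6% of genes were called, so the run does not measure the error of the calls given here. The genes and lists were chosen with earlier results of these data known. Values per array are given for genes that passed with an absolute difference of at least 0.3, and for a few others described by role; in other lists up to 3 called genes with the smallest p are named, plus DBF4 and TICRR. Some genes of the other lists are not reported here.

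Alternatives changed the normalization, the filter on dim genes, the probe set summary, the variance model or the weight of arrays, added a replicate block, or dropped 1 array. Precision is limited by the number of arrays, and p-values measure only the spread between these samples.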

Additional observations from a re-analysis of the deposited data

How the results depend on the processing

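The count of replication genes that rose stayed within 1.5 times of 16 under 12 of the 16 alternatives, and the 10 named above were called in each. Testing all probe sets together left the log2 differences as they were and gave 10 that rose and 1 that fell, against 16 and 3. At an unadjusted p under 0.05 in limma it gave 19 higher and 3 lower, against 19 and 5. That setting changes the adjustment and the variance estimate, and their parts were not tested separately. Leaving out 1 array at a time gave 10 to 13 that rose and 0 to 3 that fell. The median difference of the 47 genes ranged from 0.07 (without miR-205 replicate 3) to 0.13 (without negative control replicate 2). Over all genes, 1588 to 2668 rose and 1777 to 2881 fell with 1 array left out. The replicate number as a block gave 15 that rose and 4 that fell among the replication genes, and ended the call of RFC5 (adjusted p = 0.0656) and added CLSPN (adjusted p = 0.0451). Deviations of same-numbered arrays from their group means correlated at 0.06, 0.09 and 0.01, and those of differently numbered arrays at -0.09 to 0.05. For each miR-205 array the same-numbered control array gave the highest of these correlations. Whether the numbers pair the samples was not settled by these values, and the main test used no block. CDC45, GINS2, RPA3 and CLSPN passed under at least 1 alternative. No called gene changed sign under any of the 16. With 3 arrays a group, small changes such as those of the MCM genes are bounded only by the intervals given.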
